A study of Mus musculus with 60 samples.

Results

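Transcripts of the cyclic nucleotide phosphodiesterases were compared between the hippocampus of wild-type (WT) and R6/1 mice. The group consists of 10 genes taken by name from the expression table of 24508 gene symbols: Pde1a, Pde1b, Pde1c, Pde2a, Pde4a, Pde4b, Pde4d, Pde7b, Pde8b and Pde10a. All 10 were measured in all 18 RNA-seq libraries (9 WT and 9 R6/1), and all 10 passed the filter on low values. Both groups were 30-week-old mice on a mixed CBA and C57BL/6 background, and the tissue was frozen hippocampus. R6/1 is a single transgenic line that carries the first exon of human huntingtin with an expanded CAG repeat under the human promoter, in addition to the mouse's own huntingtin genes, and serves as a model of Huntington's disease; WT mice lack the transgene. The labels describe the libraries of a genotype as independent biological replicates. Lamin B1 chromatin immunoprecipitation from the same tissue, with 3 replicates per genotype each pooled from 5 mice, gave 1 deposited list of lamina-associated domains per genotype.

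Phosphodiesterases hydrolyse cyclic AMP and cyclic GMP and so end the signals that adenylate and guanylate cyclases start. The families differ in substrate and control: PDE1 enzymes are switched on by calcium and calmodulin and cleave both nucleotides, PDE2A cleaves both and is stimulated by cyclic GMP, PDE4, PDE7 and PDE8 enzymes are specific for cyclic AMP, and PDE10A cleaves both. In hippocampal neurons cyclic AMP acts through protein kinase A, the exchange factors Epac and the transcription factor CREB, a pathway known for its part in long-lasting synaptic plasticity. PDE10A, PDE1B and PDE7B are best known from striatal projection neurons, the cells most affected in Huntington's disease.

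The start regions of the genes are shown first for 3 members, Pde2a and Pde4b because they gave the lowest adjusted p among the members that fell and rose, and Pde1a because its start lay in a lamina domain in WT only. Of the 5 start regions of Pde2a and the 4 each of Pde4b and Pde1a in the table, the one printed was picked because it alone held the motif marked below. The sequences are RefSeq promoters of build GRCm38.p6, from 250 bases before to 50 bases after an annotated start, 5′ to 3′ on the gene's strand. Capitals mark the core of the cyclic AMP response element, searched as TGACG on both strands, so it reads CGTCA where it lies on the other strand. This build differs from that of the domain lists, and positions were not converted. All 10 members matched the table, with 31 start regions, some of which overlap each other.
Pde2a, chr7:101450270-101450569, plus strand: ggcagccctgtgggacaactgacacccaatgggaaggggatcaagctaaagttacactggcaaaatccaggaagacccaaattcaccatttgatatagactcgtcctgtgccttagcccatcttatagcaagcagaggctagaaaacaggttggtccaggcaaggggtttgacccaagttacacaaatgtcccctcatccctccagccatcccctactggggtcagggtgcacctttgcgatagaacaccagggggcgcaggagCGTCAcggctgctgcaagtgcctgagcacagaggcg
Pde4b, chr4:102421305-102421604, plus strand: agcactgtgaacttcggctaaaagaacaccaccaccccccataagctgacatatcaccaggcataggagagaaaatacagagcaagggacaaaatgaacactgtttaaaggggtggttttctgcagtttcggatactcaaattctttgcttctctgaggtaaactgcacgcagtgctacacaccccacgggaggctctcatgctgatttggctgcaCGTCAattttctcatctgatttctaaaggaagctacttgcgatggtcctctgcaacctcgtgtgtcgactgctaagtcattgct
Pde1a, chr2:80038853-80039152, minus strand: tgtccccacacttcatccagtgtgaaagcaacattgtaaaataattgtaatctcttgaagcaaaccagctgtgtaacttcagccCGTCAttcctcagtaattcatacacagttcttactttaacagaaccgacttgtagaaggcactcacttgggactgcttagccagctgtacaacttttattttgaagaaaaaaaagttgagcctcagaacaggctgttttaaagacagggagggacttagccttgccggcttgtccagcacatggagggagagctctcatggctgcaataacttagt
The core was present in 5 of the 31 start regions (16.1%), 1 each of Pde1a, Pde2a, Pde4a, Pde4b and Pde8b, against 20.8% of the 32851 start regions in the table. By gene, 5 of the 10 members had the core in a start region, against 23.0% of 27025 genes. The members have more start regions per gene (31 for 10 genes) than the whole table (32851 for 27025), so the shares by gene are not alike. The full palindrome TGACGTCA, which contains the core on both strands, was in 0 of the 31 and in 1.79% of all. A match is a description of the letters in this window.

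The expression values are RPKM, reads per kilobase of transcript scaled for depth, so levels can be set side by side between genes. Each library had between 12299434 and 16736544 reads on genes. Hippocampal markers were present in both genotypes, with Prox1, a transcription factor of dentate granule neurons, at 14.8 ± 3.32 RPKM in the WT libraries and 10.5 ± 1.04 RPKM in the R6/1 libraries (SD, n = 9 each). The 6 dentate granule markers were all lower in R6/1, with a summed level from 41.2 to 80.6 RPKM in WT and from 18.6 to 24.5 RPKM in R6/1. The summed level of 6 CA1 markers ranged from 161.6 to 229.7 RPKM in WT and from 124.2 to 140.6 RPKM in R6/1, and that of 6 CA2 and CA3 markers from 126.6 to 190.4 RPKM and from 64.3 to 81.7 RPKM. Of 12 striatal projection neuron markers, 10 were tested and 4 were lower, and their summed level ranged from 67.6 to 86.6 RPKM in WT and from 48.1 to 55.9 RPKM in R6/1. Calls of lower were also made for 5 of 6 inhibitory neuron, 5 of 6 astrocyte, 4 of 6 oligodendrocyte, 4 of 6 microglia and 3 of 6 endothelial and mural markers (5 of 6 without WT replicate 1). In the same limma fit, 23.5% of all genes tested were called lower and 24.8% higher. Of 6 oligodendrocyte precursor markers 1 was lower, with overlapping sums from 73.5 to 92.1 RPKM in WT and from 65.2 to 93.6 RPKM in R6/1. Of 11 activity-regulated genes 8 were lower, with sums from 131.1 to 345.7 RPKM in WT and from 96.4 to 225.3 RPKM in R6/1. The summed level of 6 choroid plexus markers varied from 25.4 to 1072 RPKM in WT and from 38.1 to 1741 RPKM in R6/1, with 0 of 6 called by limma, also at an unadjusted p under 0.05. The part of these shifts in the phosphodiesterase values was not tested.

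Of the 10 phosphodiesterases, 4 were lower (Pde2a, Pde7b, Pde1b and Pde8b) and 2 higher (Pde4b and Pde4d) in R6/1, and 4 did not pass the test (Pde1a, Pde1c, Pde4a and Pde10a). The test was limma on log2(RPKM + 0.5) over 14446 genes, with Benjamini-Hochberg adjustment over all of them and a threshold of 0.05, and fold changes on this scale come out too small for scarce transcripts. In that fit 48.3% of all genes tested were called, 24.8% higher and 23.5% lower, so the members' share of 60.0% (6 of 10) is to be read against a transcriptome of which close to the same share was called. The median log2 fold change was -0.07 for the members and 0.00 for all genes tested. The libraries of the genotypes did not overlap for 1 of the 10 genes, against 11.9% of the genes tested. In the authors' deposited table the same 6 members had an adjusted p under 0.05, against 40.4% of the genes with an adjusted p there, with the same direction for all 10. When RPKM was rescaled by the recovered read total of each library, 3 members were higher and 3 lower, because Pde4a passed the threshold and Pde8b no longer did; under that scaling 66.9% of all calls were higher in R6/1, against 51.4% as deposited.

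**Figure D1:**
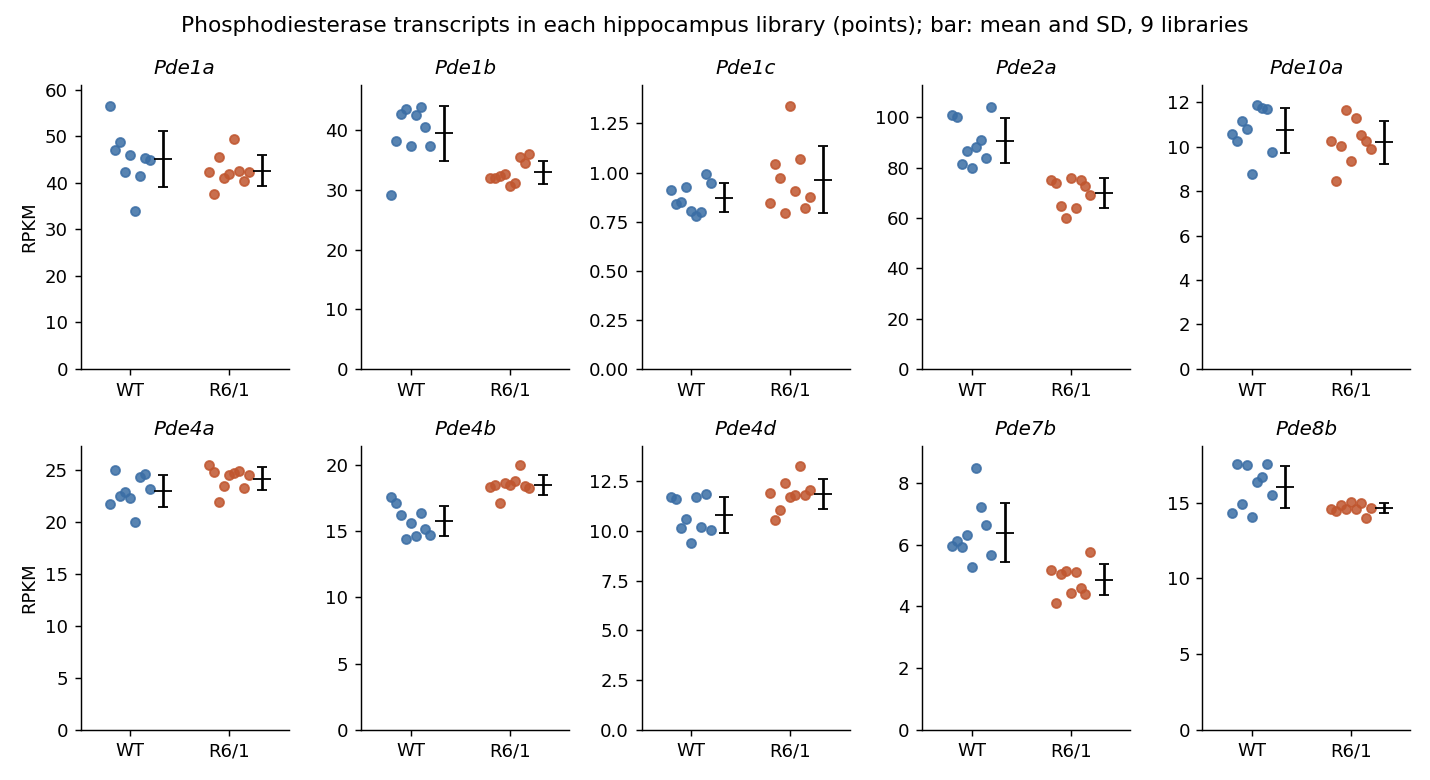
RPKM (vertical axis, from 0) of the 10 phosphodiesterase genes in each of 9 WT and 9 R6/1 libraries (points, in replicate order from left to right within a genotype), with the mean and SD beside them. Pde2a is the gene whose genotypes do not overlap, Pde4b lies higher in R6/1, and 1 WT library of Pde1b lies below all R6/1 libraries.

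Pde2a, the cyclic GMP-stimulated enzyme, was the most abundant phosphodiesterase transcript in both genotypes and was lower in every R6/1 library than in any WT library. Its level in WT was 79.8 RPKM in the lowest library, 88.1 RPKM at the median and 104.3 RPKM in the highest. In R6/1 it was 59.9 RPKM in the lowest library, 72.7 RPKM at the median and 75.9 RPKM in the highest. The mean fell from 90.7 ± 9.04 RPKM to 70.0 ± 5.91 RPKM (SD, n = 9 each), which is -0.37 as log2 fold change (SE 0.059, limma adjusted p 3.40e-05). The values rest on 4198 to 6988 reads per library. The gene lies on chromosome 7 from 108570212 to 108661340, plus strand (build NCBIM37, GENCODE M1, used for all gene and domain positions). In bulk tissue, fewer cells of a type and less RNA per cell cannot be told apart. The call held in all 28 alternative fits, with log2 fold changes from -0.39 to -0.30.

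Pde7b, a cyclic AMP-specific enzyme of high affinity, fell by 0.36 on the log2 scale (SE 0.075, limma adjusted p 0.000611). WT libraries ranged from 5.28 to 8.47 RPKM with a median of 6.11 RPKM, and R6/1 libraries from 4.11 to 5.75 RPKM with a median of 5.06 RPKM. The genotypes overlapped, with 8 of 9 R6/1 libraries below the lowest WT library and 7 of 9 WT libraries above the highest R6/1 library. Pde7b lies on chromosome 10 from 20117810 to 20444884, minus strand, and rests on 350 to 676 reads per library. Its closest relative Pde7a, outside the 10, fell as well, from 4.87 ± 0.353 RPKM to 4.05 ± 0.208 RPKM (SD, n = 9 each; limma adjusted p 0.000334).

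Pde1b, a calmodulin-dependent enzyme that is abundant in striatum and dentate gyrus, fell from 39.4 ± 4.68 RPKM to 33.0 ± 1.93 RPKM (SD, n = 9 each; log2 fold change -0.25, SE 0.063, limma adjusted p 0.00289). WT libraries ranged from 29.1 to 43.9 RPKM with a median of 40.5 RPKM, and R6/1 libraries from 30.6 to 36.0 RPKM with a median of 32.2 RPKM. The overlap came from 1 library: WT replicate 1, at 29.1 RPKM, lay below all R6/1 libraries, while the other 8 WT libraries, from 37.3 RPKM upwards, lay above all of them. Without WT replicate 1 the log2 fold change was -0.30 (limma adjusted p 1.50e-05). The same library had the highest WT level of Pde1a and of Pde4b. Pde1b is the shortest of the 10 genes, at 27.0 kb on chromosome 15 from 103333465 to 103360483, plus strand.

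The other calmodulin-dependent genes did not pass the test. Pde1a, abundant in pyramidal neurons, ranged from 34.0 to 56.5 RPKM in WT with a median of 45.3 RPKM, and from 37.5 to 49.5 RPKM in R6/1 with a median of 42.3 RPKM. The genotypes overlapped widely, and the log2 fold change was -0.08 with a 95% interval from -0.22 to 0.07 (limma adjusted p 0.389). Pde1c, known for high activity in olfactory neurons and smooth muscle, was the scarcest of the 10, from 0.777 to 0.991 RPKM in WT and from 0.795 to 1.34 RPKM in R6/1. Its log2 fold change of 0.09 had an interval from -0.06 to 0.24 (limma adjusted p 0.338), on 129 to 247 reads per library. Whether Pde1a and Pde1b differed from each other in their change was not tested.

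Pde10a, the enzyme best known from the striatum, did not pass the test in hippocampus. Its WT libraries ranged from 8.79 to 11.9 RPKM with a median of 10.8 RPKM, and its R6/1 libraries from 8.44 to 11.7 RPKM with a median of 10.3 RPKM. The distributions lay on top of each other, and the log2 fold change was -0.07 with a 95% interval from -0.20 to 0.06 (limma adjusted p 0.355). It did not pass in any of the 28 alternative fits, where the limma adjusted p ranged from 0.136 to 0.986. The dopamine receptor gene Drd1 and the adenosine receptor gene Adora2a, which mark striatal projection neurons, were at 2.10 ± 0.427 RPKM and 0.818 ± 0.219 RPKM in WT libraries (SD, n = 9 each). In R6/1 libraries they were at 1.10 ± 0.203 RPKM and 0.692 ± 0.129 RPKM (SD, n = 9 each). Drd1 was called lower (log2 fold change -0.69, limma adjusted p 1.95e-05), and Adora2a did not pass (limma adjusted p 0.283). Ppp1r1b, the gene of DARPP-32, whose phosphorylation PDE10A and PDE1B are known to limit in striatum, fell from 17.7 ± 1.21 RPKM to 11.2 ± 1.21 RPKM without overlap (SD, n = 9 each; log2 fold change -0.65, limma adjusted p 2.44e-08).

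The PDE4 genes, whose cyclic AMP-specific products are the targets of rolipram, had positive log2 fold changes. Pde4b rose from 15.8 ± 1.13 RPKM to 18.5 ± 0.733 RPKM (SD, n = 9 each; log2 fold change 0.23, SE 0.040, limma adjusted p 0.000115). WT libraries ranged from 14.4 to 17.6 RPKM with a median of 15.6 RPKM, and R6/1 libraries from 17.1 to 20.0 RPKM with a median of 18.5 RPKM. Thus 8 of 9 R6/1 libraries lay above the highest WT library, and the call held in all 28 alternative fits. Pde4b lies on chromosome 4 from 101760148 to 102279864, plus strand.

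Pde4d, the longest of the 10 genes (1504 kb, chromosome 13 from 109240142 to 110743669, plus strand), passed the threshold narrowly. Its WT libraries ranged from 9.38 to 11.9 RPKM with a median of 10.6 RPKM, and its R6/1 libraries from 10.6 to 13.3 RPKM with a median of 11.8 RPKM. The log2 fold change was 0.13 (SE 0.050, limma adjusted p 0.0401), with 4 of 9 R6/1 libraries above the highest WT library. The call was lost with the replicate number as a block (limma adjusted p 0.0629) and in 11 of the 18 fits that left out 1 library, where the limma adjusted p reached 0.0813. These were WT replicates 3, 4, 5, 7 and 9 and R6/1 replicates 1, 4, 6, 7, 8 and 9. Pde4a ranged from 20.0 to 24.9 RPKM in WT with a median of 22.9 RPKM, and from 21.8 to 25.5 RPKM in R6/1 with a median of 24.5 RPKM. Its log2 fold change of 0.07 had a 95% interval from -0.01 to 0.16 (limma adjusted p 0.140), and among the alternatives it passed only with the rescaling by read totals, at 0.15 (limma adjusted p 0.00792).

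Pde8b, a cyclic AMP-specific enzyme of very high affinity, was called lower by a small margin. WT libraries ranged from 14.1 to 17.5 RPKM with a median of 16.4 RPKM, and R6/1 libraries from 14.0 to 15.0 RPKM with a median of 14.6 RPKM. The R6/1 libraries lay close together at the lower end of the WT range, 1 of them below the lowest WT library, and 6 of 9 WT libraries were above the highest R6/1 library. The log2 fold change was -0.12 (SE 0.044, limma adjusted p 0.0253). The call was lost with the rescaling by read totals (-0.05, limma adjusted p 0.347) and without WT replicate 2, 4 or 8, with a limma adjusted p of up to 0.0527. Its relative Pde8a, outside the 10, fell from 8.29 ± 0.575 RPKM to 5.48 ± 1.09 RPKM with no overlap (SD, n = 9 each; log2 fold change -0.57, limma adjusted p 1.87e-05). Whether the changes of Pde8a and Pde8b differed was not tested. Among the R6/1 libraries, Pde8a was highest in replicates 5 and 2 (7.32 and 6.76 RPKM), where the summed oligodendrocyte markers were also highest (1020 and 996 RPKM), and lowest in replicates 4 and 3 (4.07 and 4.30 RPKM), where that sum was lowest (588 and 593 RPKM). The summed endothelial and mural markers were highest in the same replicates 5 and 2 (97.3 and 78.3 RPKM) and lowest in 4 and 3 (60.1 and 62.4 RPKM). The precursor sum was also highest in 5 (93.6 RPKM) and lowest in 4 and 3 (65.2 and 67.2 RPKM). The microglia and astrocyte sums were highest in 5 (95.5 and 724.5 RPKM) but lowest in 7 (53.5 and 580.4 RPKM). Choroid plexus markers were highest in 3 and 4 (1741 and 1025 RPKM), with 121.2 RPKM in 5. In WT replicate 7, Pde8a was at 8.73 RPKM, near its WT highest of 9.21 RPKM. The oligodendrocyte sum there was 1082 RPKM, in a WT range from 963 to 1231 RPKM. The part of any of these sets of markers in the Pde8a result was not tested.

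**Figure D2:**
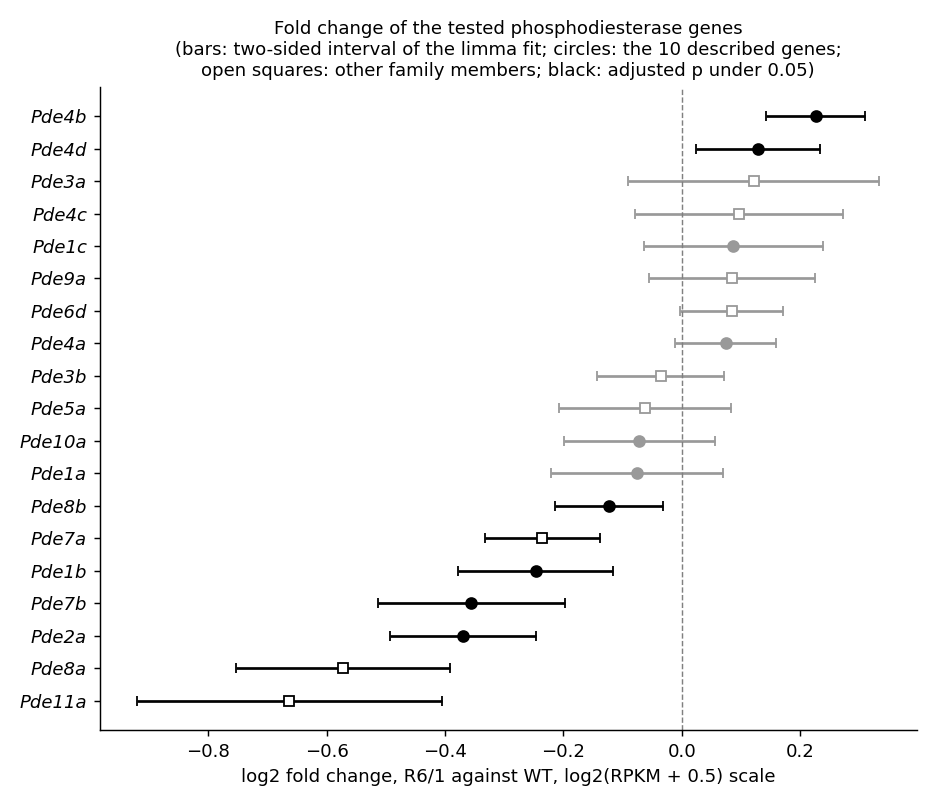
Log2 fold change of R6/1 against WT (horizontal axis) for the 19 phosphodiesterase genes that were tested, with the 95% intervals of the limma fit over 9 WT and 9 R6/1 libraries. Filled circles are the 10 genes described, open squares other family members, and black marks an adjusted p under 0.05; Pde4b and Pde4d lie to the right of 0, and Pde8b, Pde7a, Pde1b, Pde7b, Pde2a, Pde8a and Pde11a to the left.

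The rest of the family holds 14 further rows of the table, 9 of which passed the filter. Of these, 3 were lower and 0 higher at a limma adjusted p under 0.05, the same as at an unadjusted p under 0.05, among them Pde11a, an enzyme for both nucleotides that in rodent brain is concentrated in ventral hippocampus. Pde11a fell from 2.64 ± 0.580 RPKM to 1.49 ± 0.399 RPKM (SD, n = 9 each; log2 fold change -0.66, limma adjusted p 0.000173), with 8 of 9 R6/1 libraries below the lowest WT library and 40 to 137 reads per library. Pde3a, Pde3b, Pde4c, Pde5a and Pde9a had log2 fold changes between -0.06 and 0.12 and did not pass. Pde6d, a prenyl-binding chaperone despite its name, was at 23.8 ± 1.53 RPKM in WT libraries and at 25.3 ± 1.48 RPKM in R6/1 libraries (SD, n = 9 each; limma adjusted p 0.106). It passed as higher with quantile normalization (limma adjusted p 0.0291), with the rescaling by read totals (0.00282) and without WT replicate 2 (0.0425). The photoreceptor genes Pde6a, Pde6b, Pde6c, Pde6g and Pde6h stayed under the filter, with a highest value of 0.643 RPKM in any library.

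The order of levels was Pde2a, Pde1a, Pde1b, Pde4a, Pde8b, Pde4b, Pde4d, Pde10a, Pde7b and Pde1c in WT, by mean RPKM. Pde2a lay above 95.0% of all genes tested, Pde1a above 89.2%, Pde10a above 56.7%, and Pde1c above 8.15%. In WT, Pde1a and Pde1b overlapped, as did Pde8b and Pde4b, and Pde4d and Pde10a (10.8 ± 0.923 and 10.7 ± 1.03 RPKM; SD, n = 9 each). In R6/1 the ranges of Pde1a and Pde1b were apart, and Pde4b stood above Pde8b in 9 of 9 libraries, where it had been lower in 6 of 9 WT libraries. Pde8b and Pde4b thus changed places, the only such change among the 10.

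Ratios between genes of a library do not depend on its depth scaling. The ratio of Pde2a to Pde4b was 5.01 to 7.07 in WT (median 5.74) and 3.22 to 4.10 in R6/1 (median 3.79), with no overlap between genotypes. PDE4 transcripts (Pde4a, Pde4b and Pde4d) made up 14.9% to 16.5% of the summed RPKM of all 24 phosphodiesterase rows in WT and 18.5% to 20.4% in R6/1, again with no overlap. The share of the PDE1 transcripts was 25.9% to 29.9% in WT and 25.5% to 29.2% in R6/1, and that of Pde10a 3.02% to 3.99% and 3.05% to 4.36%, both with overlap. That of Pde2a was 26.3% to 32.4% in WT and 22.4% to 26.6% in R6/1, also with overlap. The summed RPKM of the 10 genes was 258.8 ± 10.8 over the WT libraries and 230.7 ± 6.88 over the R6/1 libraries (SD, n = 9 each). The pair of Pde2a and Pde4b and the subfamilies were formed with the values known, so these are descriptions with no test.

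**Figure D3:**
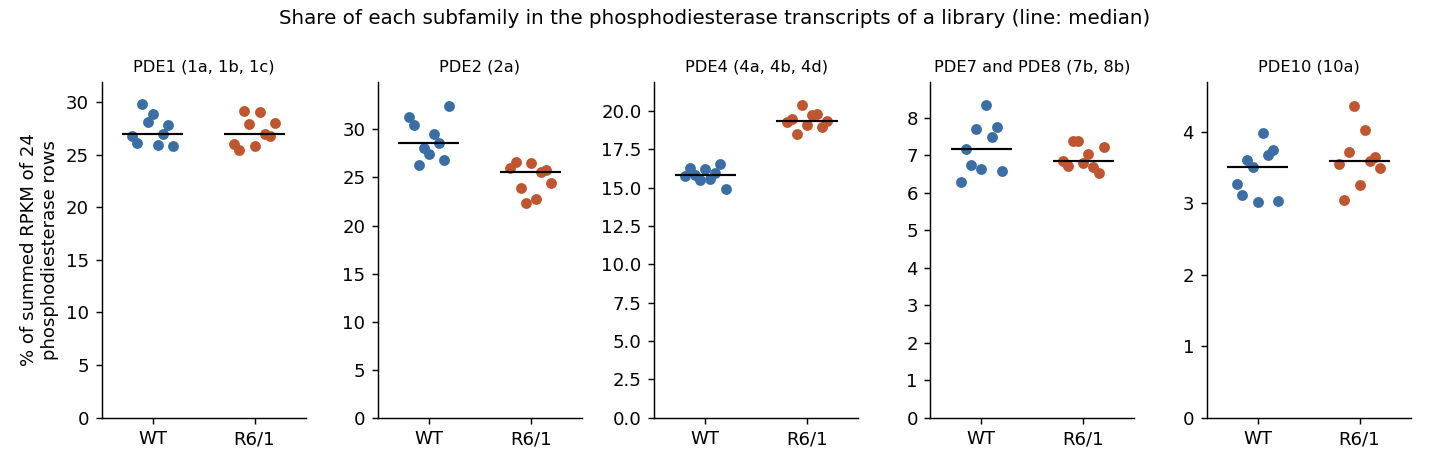
Share of the described genes of each subfamily in the summed RPKM of all 24 phosphodiesterase rows (vertical axes, percent, from 0). Points are each of 9 WT and 9 R6/1 libraries, and the line is the median. The PDE4 share is 14.9% to 16.5% in WT and 18.5% to 20.4% in R6/1. The PDE1, PDE2, PDE7 and PDE8, and PDE10 shares overlap between genotypes. The PDE7 and PDE8 share holds Pde7b and Pde8b only, without Pde7a and Pde8a, and the PDE4 share leaves out Pde4c.

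The enzymes and effectors on either side of the phosphodiesterases were then counted in 6 lists, with 58 genes tested. Of these 18 were higher and 15 lower in R6/1, against 24.8% and 23.5% of all genes tested. With the rescaling by read totals the counts were 25 higher and 12 lower. Among the adenylate cyclases, which make cyclic AMP, 4 of 9 were lower and 1 higher (median log2 fold change -0.16); the number higher was 2 without WT replicate 1 and 3 with the rescaling by read totals. Adcy1, a calmodulin-stimulated cyclase, fell from 129.2 ± 23.7 RPKM to 55.1 ± 7.18 RPKM (SD, n = 9 each; log2 fold change -1.21, limma adjusted p 7.29e-09). Adcy9 fell by 0.55 and Adcy2 by 0.37 on the log2 scale, and Adcy3 rose by 0.33. On the cyclic GMP side, 4 of 8 tested genes were lower and 0 higher by limma, also at an unadjusted p under 0.05 (1 higher with the rescaling by read totals). The filter on low values kept Gucy2f and Gucy2c out of this count. Mean Gucy2f went up from 0.221 to 0.379 RPKM, on 24 to 74 reads per library, with 8 of 9 R6/1 libraries above the highest WT library. The authors' deposited table gives log2 fold changes of 0.70 for Gucy2f (DESeq2 adjusted p 1.42e-06) and -0.24 for Gucy2c (DESeq2 adjusted p 0.438). The lower genes had log2 fold changes of -0.95 for Npr1, a natriuretic peptide receptor, -0.51 for Nos1, the neuronal nitric oxide synthase, -0.34 for the soluble cyclase subunit gene Gucy1a3 and -0.21 for Gucy2e.

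Among 9 genes of protein kinase A subunits and inhibitors, 6 were higher and 1 lower (median log2 fold change 0.20). Prkacb, a catalytic subunit, rose from 82.8 ± 8.16 RPKM to 107.4 ± 6.72 RPKM, and Prkar2a, a regulatory subunit, from 14.6 ± 0.629 RPKM to 18.0 ± 0.803 RPKM without overlap (SD, n = 9 each; limma adjusted p 5.87e-06 and 8.30e-07). The inhibitor gene Pkib rose by 0.27 on the log2 scale, and the inhibitor gene Pkig fell by 0.47. Of 10 other effectors, 2 were higher (Hcn3, a pacemaker channel, and Popdc3, a cyclic AMP-binding membrane protein) and 2 lower (Prkg1, a cyclic GMP-dependent kinase, and Rapgef4, the exchange factor Epac2). The number higher was 1 without WT replicate 2, 3, 5, 6, 7, 8 or 9, and without R6/1 replicate 1, 2, 3, 4, 5, 6 or 9. Rapgef4 fell from 89.4 ± 9.73 RPKM to 73.1 ± 5.07 RPKM (SD, n = 9 each; limma adjusted p 0.000322).

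Anchoring proteins hold protein kinase A and phosphodiesterases near their targets. Of 14 tested, 5 were higher and 3 lower (median log2 fold change 0.05). Akap5, the postsynaptic anchor, fell from 14.9 ± 1.29 RPKM to 9.92 ± 1.12 RPKM without overlap (SD, n = 9 each; limma adjusted p 4.28e-07), while Akap9, a Golgi and centrosome anchor that binds PDE4D, rose by 0.27 on the log2 scale (limma adjusted p 0.00273). Akap12, which also binds the β2-adrenergic receptor, rose by 0.26 (limma adjusted p 0.0111), and Akap13, which activates the GTPase RhoA, fell by 0.26 (limma adjusted p 0.00462). Rack1, a PDE4D5 partner, rose by 0.13 (limma adjusted p 0.0119). Akap6 (0.13, limma adjusted p 0.0578), Pde4dip (0.09, limma adjusted p 0.0674) and Arrb2 (-0.02, limma adjusted p 0.859) did not pass. Of 8 cyclic AMP responsive factors and coactivators, 4 were higher and 1 lower. Crebbp rose by 0.45, Ep300 by 0.32 and Creb1 by 0.17 on the log2 scale, and Crtc1 fell by 0.32 (for the 3 that rose, limma adjusted p between 3.31e-05 and 0.00620).

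**Figure D4:**
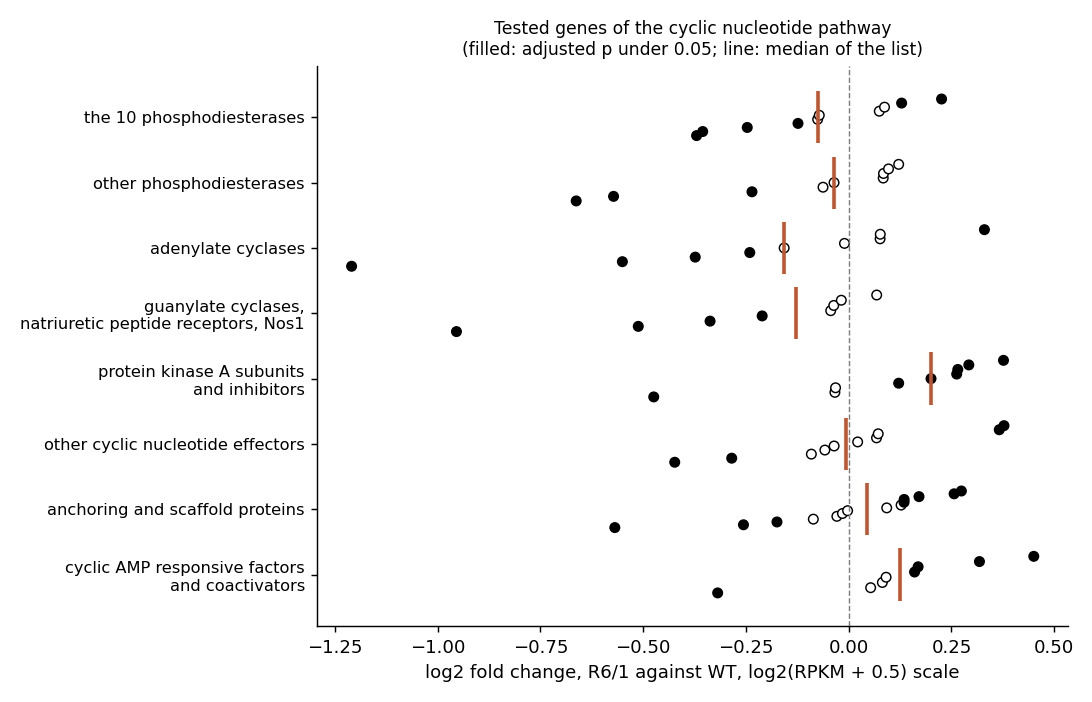
Log2 fold change of R6/1 against WT (horizontal axis) for each tested gene of the phosphodiesterase family and of 6 lists of the cyclic nucleotide pathway, 1 list per row. Filled points have an adjusted p under 0.05 and the line is the list's median, which is -0.16 for the adenylate cyclases and 0.20 for the protein kinase A genes.

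The positions of the genes in the nuclear lamina were read from the deposited domain lists, with 145 domains in WT and 166 in R6/1 and no replicate spread. The start of 1 of the 10 genes lay in a WT domain and of 0 in an R6/1 domain, against 13.0% and 7.99% of 12827 tested genes that could be placed. That gene was Pde1a (chromosome 2 from 79674610 to 79969632, minus strand). It lay with 100% of its length, and all 9 of its annotated starts, inside a WT domain from 77182001 to 90169000. In the R6/1 list the domain of this region ran from 80549001 to 90021000, so its near border lay 579.4 kb from the annotated start of Pde1a and the gene was outside. The starts of the other 9 genes were at least 586.4 kb from any WT domain and at least 549.4 kb from any R6/1 domain, both for Pde1c. Counting starts within 100 kb of a domain, or any overlap of the gene, gave the same 1 and 0.

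The level of Pde1a did not pass the test between genotypes, as given above, while its start was in a domain of the WT list only. Of 692 tested genes with a start in a WT domain and in no R6/1 domain, 632 had a lower mean level than Pde1a and 59 a higher one, and their median was 7.03 RPKM. Pde1a likewise lay above 89.2% of all genes tested. Of these 692 genes, 171 were called higher and 137 lower, together 44.5%, against 48.3% of all genes tested.

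**Figure D5:**
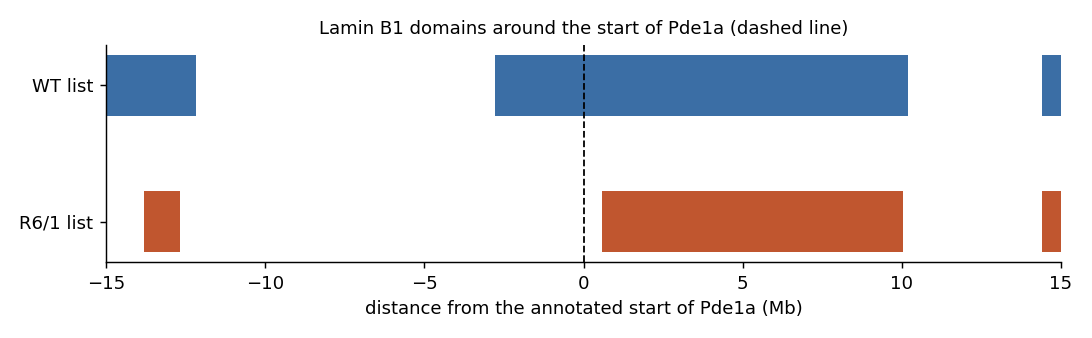
Lamin B1 domains (bars) of the WT list and the R6/1 list by distance in Mb from the annotated start of Pde1a (dashed line at 0). The start lies inside a WT domain that reaches from -2.79 to 10.2 Mb, and outside the R6/1 domain that reaches from 0.579 to 10.1 Mb.

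The 10 genes are long: their annotated lengths ran from 27.0 to 1504 kb with a median of 297.4 kb, against a median of 23.6 kb for 12827 tested genes. The RPKM of a gene pools all its transcripts, between 3 (Pde1b) and 20 (Pde4d) in the annotation, so isoforms cannot be told apart. Pde4d has a further short annotated gene of the same name, and the longer one was used. No annotated gene that overlaps a member touched one of its exons.

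The spread within a genotype was smaller in R6/1 for 9 of the 10 genes, Pde1c being the exception. This was so for 14 of the 19 tested phosphodiesterases (73.7%), which include the 10, and for 56.9% of all genes tested. For Pde1b the SD on the log2 scale was 0.18 in WT and 0.08 in R6/1, and for Pde8b it was 0.12 and 0.03. The WT value of Pde1b includes replicate 1, at 29.1 RPKM, which stood apart from the next WT library at 37.3 RPKM. Its SD without that library was not computed. Between members, 45 pairs were correlated within each genotype on log2(RPKM + 0.5), and 0 of the 90 values passed after Benjamini-Hochberg adjustment, with 4 at an unadjusted p under 0.05 for Pearson's r. The highest was that of Pde10a and Pde7b in WT (Pearson r 0.82, exact permutation p 0.00733, adjusted 0.603; Spearman rho 0.88, exact permutation p 0.00308, adjusted 0.277; n = 9; r 0.76 without the 2 libraries farthest from the median of Pde10a).

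Genes with a pattern most like a member's were sought over the 18 libraries after the genotype means were subtracted, over all genes averaging 1 RPKM or more, as a description. Libraries share their depth scaling and cell makeup, which enter every such value. The closest to Pde10a was Nhsl2 (r = 0.90), to Pde4d Nf1 (r = 0.90), to Pde7b Elp4 (r = 0.89), to Pde2a Pak1 (r = 0.88) and to Pde8b Pou3f1 (r = 0.88). For Pde1b, Pde4b, Pde4a and Pde1a they were Phf12 (r = 0.86), Adar (r = 0.84), Sncb (r = 0.82) and Pja1 (r = 0.82). Between genotypes, Nf1 rose by 0.55 on the log2 scale, and Pak1 differed by -0.04 (limma adjusted p 0.642).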

How the data were processed

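The authors deposited RPKM for 24508 gene symbols in 18 RNA-seq libraries, made from stranded messenger RNA libraries per the labels' protocols. TopHat, DESeq2 and build mm9 are named in the submitters' processing notes; the counter, its strand setting and the annotation are not given in the sources used here. The authors' deposited table gives a mean normalized count (a signal), log2 fold changes with standard errors, a test score and p-values. The deposited lamin B1 domain lists carry 1 score per domain, which was not used. The deposited RPKM, converted per gene by the ratio of that normalized count to the gene's average RPKM, came out as whole reads (tolerance 0.05 of a read, values under 100 reads) for 99.77% to 99.84% of values per library, which gave the reads and each library's own total. These reads were used for depth and scaling; intervals over libraries do not separate counting error.

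Genotypes were compared with limma 3.58.1 (R 4.3.3; lmFit and eBayes with a trend, two-sided) on log2(RPKM + 0.5) for genes averaging 0.5 RPKM or more, and the fit was tested on simulated data. Alternatives were pseudocounts of 0.1 and 1, no filter, a filter at 2 RPKM, centring on medians, quantile normalization, rescaling by recovered read totals, no trend, library weights, a replicate block and leaving out each library. Gucy1a1 and Gucy1b1 were read under their older symbols Gucy1a3 and Gucy1b3. Positions are from GENCODE M1 on NCBIM37, the assembly of mm9. Named genes were all phosphodiesterases, up to 4 called genes with the largest change per pathway list, and known partners (Pde4dip, Rack1, Arrb2, Akap6, Akap9, Ppp1r1b), with the gene most alike to a member; some genes the rule names are not reported here. The members and lists were chosen with earlier results of these data known. ATAC-seq was not used here, and the number of unused per-sample columns was 0.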

Additional observations from a re-analysis of the deposited data

Results flagged for a closer look

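Dixon's ratio was computed for the 9 libraries of each genotype and each of the 19 tested phosphodiesterases, and in 3 of 38 groups the highest or lowest library stood apart, where chance gives about 1 in 20. In WT replicate 1, Pde1b was at 29.1 RPKM, below the next WT library at 37.3 RPKM, and without it the log2 fold change moved from -0.25 to -0.30. In R6/1 replicate 5, Pde3b was at 3.79 RPKM, above the next library at 3.30 RPKM, and without it the limma adjusted p of Pde3b was 0.265. In R6/1 replicate 1, Pde9a was at 7.72 RPKM, above the next library at 6.96 RPKM, and without it the limma adjusted p of Pde9a was 0.489.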

How the results depend on the processing

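Each tested gene was fitted under up to 28 alternatives. Among the 10 members, the calls of Pde1b, Pde2a, Pde4b and Pde7b held in all of them, and Pde1a, Pde1c and Pde10a stayed uncalled in all that could be run (Pde1c was not tested with the filter at 2 RPKM). The number of members called higher was 1 with the replicate block, and between 1 and 2 when each library was left out in turn, since Pde4d lost its call. Apart from Pde4d, the replicate block changed no call among the members. Same-numbered libraries of the genotypes correlated over 0.1 in their deviations in 3 of 9 pairs (range -0.05 to 0.24). Of the 9 WT libraries, 2 correlated best with their own number. This check cannot decide whether the numbers pair the libraries, because a weak shared effect need not give the best match. Pde3b, uncalled throughout, changed sign with quantile normalization (log2 fold change 0.0114) and with rescaling by recovered read totals (0.0277). With no filter on low values, 5 of the further phosphodiesterases were lower, against 3. The further ones were Pde6g and Pde6h, which had between 0 and 8 reads per library, so counting error limits them most.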
